A study of Danio rerio with 6 samples.

Results

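Endothelial cells that overexpress hhex were compared with endothelial cells of hhex mutants in embryos at 48 h post fertilisation (hpf), gene by gene. Of 31701 genes in the table, 11856 had a mean normalised value of at least 50 over the 4 libraries of both groups. A gene was selected when its 2 overexpression libraries did not overlap its 2 mutant libraries and the smallest ratio between any library of one group and any library of the other was at least 2. This rule selected 413 genes, of which 219 were higher in hhex overexpression (1.85% of the 11856) and 194 were higher in hhex mutants (1.64%). The groups were merely apart, with no minimum ratio, in 25.1% of the genes towards overexpression and in 30.9% towards the mutants. These shares over all genes are the background for the list counts below. Since the measured values themselves chose the genes, the values below describe them and do not test them.

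Hhex is a homeodomain transcription factor that acts mainly as a repressor and is made in the anterior endoderm and liver bud, in endothelial cells and in early blood progenitors. In zebrafish it has been linked to the differentiation of blood and endothelial progenitors. Lymphatic and venous sprouting depends on the receptor Flt4 and its ligand Vegfc, while blood stem cells emerge over the same hours from the hemogenic endothelium of the dorsal aorta, which the kdrl reporter also labels.

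The mutants were hhex embryos of the s722 allele in the AB strain carrying the endothelial reporter Tg(kdrl:EGFP)s843, picked by the absence of parachordal lymphangioblasts, the precursors of the lymphatics, and sorted for EGFP. The overexpression embryos carried the same reporter with Tg(fli1a:tdTomato-2A-hhex)bns136, in which the fli1a promoter drives hhex in endothelial cells, and were sorted for EGFP together with tdTomato. The siblings, labelled wild type, were picked by the presence of parachordal lymphangioblasts and sorted for EGFP, so that they can carry 1 mutated copy. There were 2 libraries in each of the 3 groups, and nothing states that the 2 came from separate clutches, so that p-values measure the spread between these libraries. The gates differed between overexpression and the other 2 groups, and in sorted bulk samples fewer cells of a type and less RNA per cell cannot be told apart.

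The 6 libraries held summed values of 19133058 to 23381023. A list of 10 pan-endothelial genes summed to 11604 and 32249 in the mutant libraries, 15688 and 26127 in the siblings and 37097 and 32124 in overexpression. Mutant replicate 1 and sibling replicate 1 thus stood apart from their partners by a low endothelial signal. All 10 genes had a mean of at least 50, and none of them was selected. Of these genes 5 had groups apart towards overexpression and none towards the mutants, against 25.1% and 30.9% of all genes. Their median log2 fold change from mutants to overexpression was 0.91. Library pairs differed by a median SD on the log2 scale of 0.306 in mutants, 0.201 in siblings and 0.173 in overexpression. When the libraries were rescaled to the same endothelial level, 44 genes were selected towards overexpression, all of them among the 219, and 410 towards the mutants, all of the 194 among them. The overexpression side therefore shrank and the mutant side widened with this scaling, and the part of endothelial content in either side was not tested beyond it.

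The hhex gene (ENSDARG00000098231, chromosome 12, 47695602 to 47699931 on the minus strand, GRCz10) had values of 613 and 1157 in the mutants, 764 and 925 in overexpression and 204 and 279 in siblings. The mutant and overexpression ranges overlapped, and both lay above the siblings. In the paper, in situ hybridisation at an earlier age also showed more hhex in mutants than in wild type. The authors propose that the gene can repress itself, which was not tested here. Between overexpression and mutants the log2 fold change was -0.0027 (SE 0.33, adjusted p = 0.999, limma). The s722 allele is a short in-frame deletion in the homeodomain, which need not remove the transcript, and the transgene carries the hhex coding sequence, so the value of hhex does not check the labels of these 2 groups.

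No gene passed an adjusted p of 0.05 between overexpression and mutants in the limma fit of all 20900 genes with a mean of at least 5 (0 genes, 0% of those tested), while 3675 genes, 17.6%, had an unadjusted p under 0.05, 1814 of them higher and 1861 lower in overexpression. The lowest adjusted p was 0.067, and 13 genes lay under 0.1. For the same contrast the paper, which used DESeq2, lists p-values under 0.05 for flt4, nrp2a, nrp2b, sox18 and lyve1b among others. It does not for others, such as prox1a and vegfc. The count of 0 thus belongs to the limma fit of the normalised values. With 2 libraries on either side, the smallest p of an exact permutation test on 1 gene is 0.333. Over the selected genes the median log2 fold change was 1.88 towards overexpression and -2.27 towards the mutants, where the median of all genes tested was 0.02. Their adjusted p-values ran from 0.067 to 0.379, and the unadjusted p was under 0.05 for 217 of the 219 and for all of the 194.

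**Figure D1:**
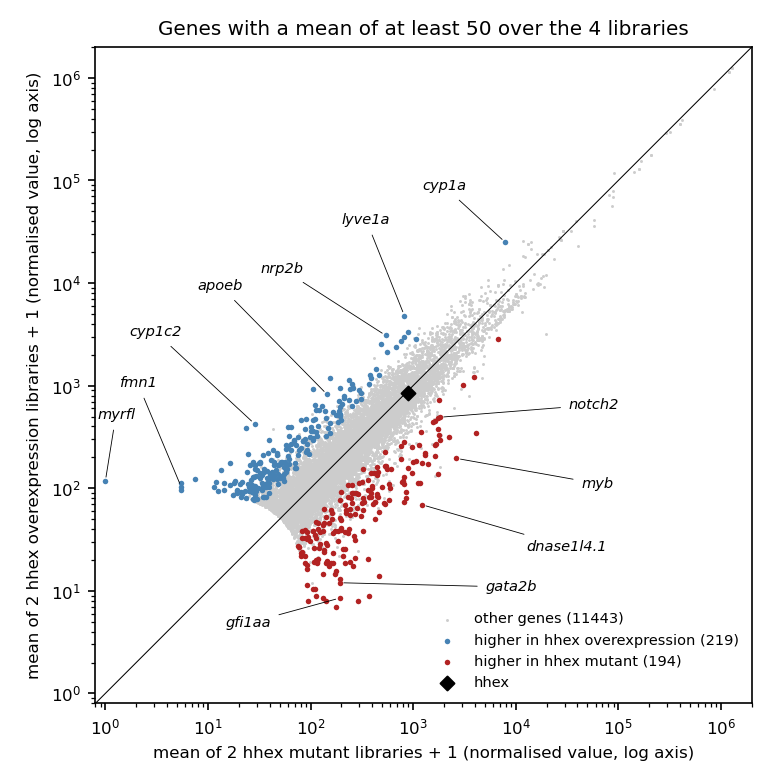
Mean normalised value of the 2 hhex mutant libraries (x axis, plus 1, log axis) against the mean of the 2 overexpression libraries (y axis, plus 1, log axis) for the 11856 genes, with the 219 genes selected towards overexpression in blue, the 194 towards mutants in red and hhex as a black diamond. The selected genes lie off the diagonal on both sides, while hhex lies on it.

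The siblings, which the rule did not use, placed the sides differently. Of the 194 genes higher in mutants, 136 were also at least 2 times higher in both siblings than in both overexpression libraries, and in 6 genes the mutants alone stood above the other 2 groups by that ratio. Of the 219 genes higher in overexpression, 60 (27.4%) were at least 2 times above both siblings as well, 8 were set apart by low mutants alone, 1 gene had all 3 groups apart and 150 had siblings that met neither criterion. With 0 standing for the mutant mean and 1 for the overexpression mean on the log2 scale, the median position of the siblings was 0.103 for the genes higher in mutants and 0.334 for the genes higher in overexpression. Applied to overexpression against siblings, the rule selected 209 genes upwards (1.76% of 11888) and 330 downwards (2.78%), and for mutants against siblings it selected 14 upwards (0.119% of 11775) and 48 downwards (0.408%). These comparisons share libraries with each other.

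Among the genes higher in overexpression were the receptor of Vegfc and both of its neuropilin co-receptors. The gene of the ligand itself, vegfc, was not selected in either direction. The values of flt4 (chromosome 14, 15511491 to 15651094), which encodes the receptor Vegfr3, were 302 and 1312 in mutants, 1052 and 2166 in siblings and 2815 and 3152 in overexpression. Overexpression was higher than every other library, and the siblings overlapped the mutants. Its log2 fold change from mutants to overexpression was 2.24 (SE 0.62, adjusted p = 0.171, limma). The nrp2b gene (chromosome 9, 14396367 to 14533631), a neuropilin that binds Vegfc and semaphorins, had 299 and 781 in mutants, 783 and 1885 in siblings and 2946 and 3225 in overexpression, a log2 fold change of 2.67 (SE 0.51). The 3 groups followed each other without overlap, although sibling replicate 1 was only 2 units above the higher mutant library. Its paralog nrp2a (chromosome 1, 4908655 to 5048297) had 150 and 272 in mutants, 222 and 545 in siblings and 775 and 818 in overexpression, a log2 fold change of 1.97 (SE 0.44). Of 10 measured genes on a list of Vegf receptors, neuropilins and ligands these 3 (30%) were selected, against 1.85% of all genes. None was selected towards the mutants. The list's median log2 fold change was 0.63 over the measured genes. That of the 10 pan-endothelial genes was higher, at 0.91, and that of all 11856 genes was -0.04. Of the remaining members with high values, kdrl had overlapping groups, at 7336 and 21007 in mutants and 25369 and 17167 in overexpression. After rescaling to the endothelial level nrp2b stayed selected, with a smallest ratio of 2.85, and flt4 and nrp2a did not.

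Both zebrafish copies of Lyve1, a hyaluronan receptor of venous and lymphatic endothelium, were higher in overexpression. The values of lyve1a (chromosome 7, 66598581 to 66610393) were 349 and 1293 in mutants, 656 and 2267 in siblings and 4402 and 5218 in overexpression. The overexpression libraries lay well above all 4 others, and the siblings overlapped the mutants. On average lyve1a was 5.86 times higher in overexpression than in mutants, a log2 fold change of 2.83 (SE 0.68, adjusted p = 0.15, limma). The values of lyve1b were 115 and 364 in mutants, 190 and 483 in siblings and 927 and 930 in overexpression, with a log2 fold change of 2.18 (SE 0.57). Both kept their selection after the endothelial rescaling, with smallest ratios of 2.84 and 2.12. The lysosomal protease gene lgmn had 393 and 963 in mutants and 2496 and 2279 in overexpression. On a list of 11 venous scavenger receptors and markers in the table, 9 were measured. The 2 lyve1 genes were the ones selected, against 1.85% of all genes. All 9 had groups that were apart towards overexpression, against 25.1% of all genes. The scavenger receptor gene stab2 had 1462 and 4674 in mutants and 7783 and 7152 in overexpression, and stab1 had 1313 and 5144 against 8046 and 6824. In both it was mutant replicate 2 that kept the ratio under 2.

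**Figure D2:**
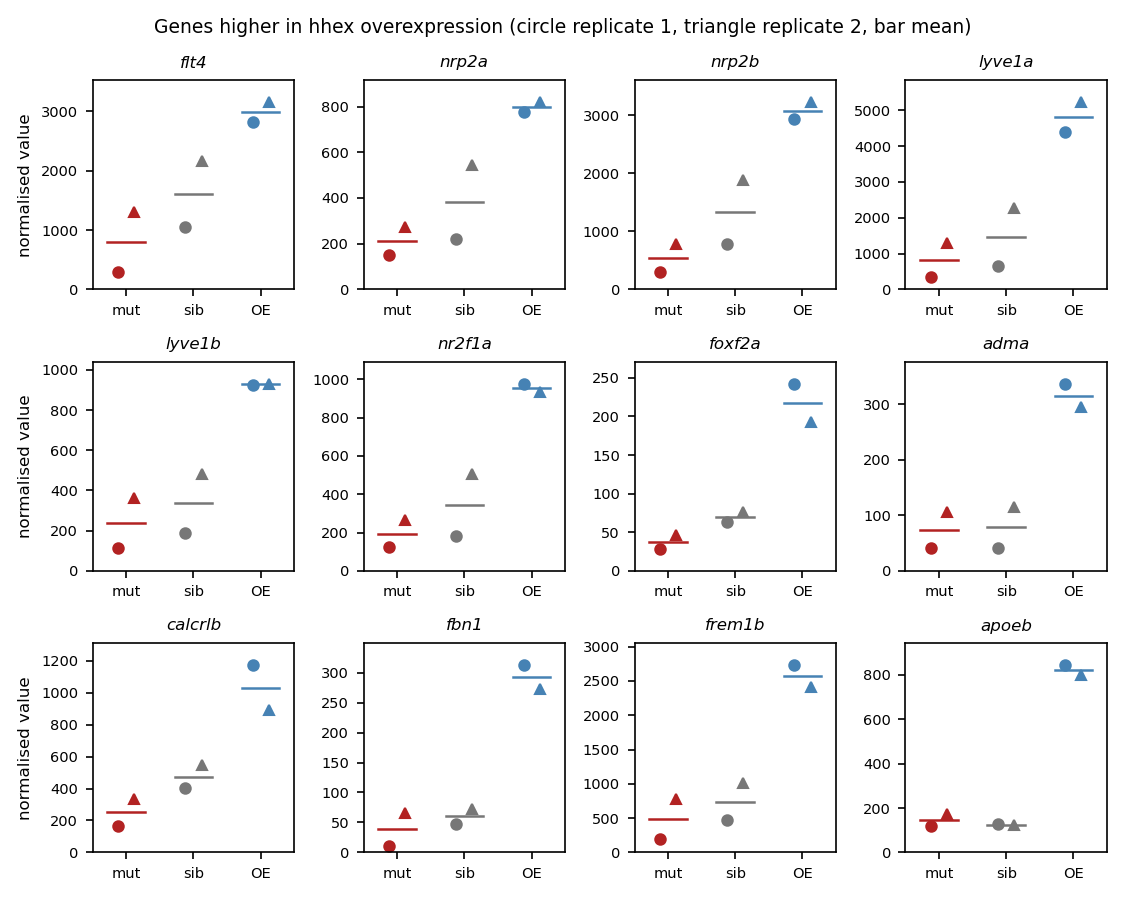
Normalised values of 12 genes selected towards overexpression in mutants (mut), siblings (sib) and overexpression (OE), with circles for replicate 1, triangles for replicate 2 and bars for the mean of the 2 libraries. Every overexpression point lies above both mutant points, and for apoeb the siblings, at 126 and 123, lie with the mutants, at 117 and 171.

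Of 17 measured genes on a list of lymphatic regulators and markers, 4 were selected towards overexpression, against 1.85% of all genes, and none towards the mutants. The 4 were the receptor genes lyve1a and lyve1b, already counted on the venous list above, with the nuclear receptor genes nr2f1a and nr2f5. The nr2f genes encode COUP transcription factors. The values of nr2f1a were 123 and 267 in mutants, 182 and 507 in siblings and 976 and 936 in overexpression, a log2 fold change of 2.39 (SE 0.51). At lower values nr2f5 had 36 and 49 in mutants, 45 and 29 in siblings and 128 and 115 in overexpression. Overexpression stood apart from both groups for nr2f5, whereas the siblings of nr2f1a fell into and above the mutant range. The retinoid X receptor gene rxraa, whose product pairs with other nuclear receptors, had 85 and 196 in mutants and 501 and 467 in overexpression. The list's median log2 fold change was 1.25, against 0.91 for the 10 pan-endothelial genes. The paper links prox1a, prox1b, mafba, sox18 and nr2f2 to lymphatic specification, and none of them was selected here. Its measure was DESeq2 and not this ratio rule. Among these genes its p-value for this contrast was under 0.05 for sox18 alone. The values of sox18 were 563 and 1184 in mutants and 2463 and 2161 in overexpression. Its groups were apart, with a smallest ratio under 2. Groups overlapped for sox7, at 674 and 1826 in mutants and 2573 and 1786 in overexpression. They also overlapped for yap1, at 789 and 1460 in mutants and 1607 and 1363 in overexpression.

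The other transcription factors higher in overexpression included several paralog pairs. Both foxf2 genes, which encode forkhead factors of brain pericytes and brain vessels, were selected. The values of foxf2a were 29 and 46 in mutants, 63 and 76 in siblings and 242 and 193 in overexpression, and those of foxf2b were 9 and 27 in mutants, 11 and 19 in siblings and 118 and 66 in overexpression. Overexpression was at least 2 times above both other groups in both genes. They were the 2 selected of 16 measured genes on a list of brain endothelial and Wnt genes, against 1.85% of all genes. None was selected towards the mutants. The Iroquois homeobox genes behaved alike, with irx3a at 41 and 53 in mutants, 65 and 43 in siblings and 193 and 141 in overexpression. The values of irx3b were 42 and 78 in mutants, 46 and 50 in siblings and 268 and 242 in overexpression, and irx5b had 18 and 23 in mutants and 87 and 88 in overexpression. Siblings and mutants overlapped in irx3a, irx3b and irx5b, and overexpression stood apart from both. The annotated irx3b gene overlaps mafb on the same strand, so that its value is uncertain. The cofactor gene eya1 had 38 and 75 in mutants and 236 and 244 in overexpression, with eya2 at 64 and 136 in mutants and 438 and 356 in overexpression. The homeobox gene meox2a had 25 and 55 in mutants, 45 and 174 in siblings and 214 and 160 in overexpression, and sibling replicate 2 lay between the overexpression libraries. The Bmp target gene id1, which encodes an inhibitor of bHLH factors, had 288 and 476 in mutants, 465 and 718 in siblings and 1287 and 1235 in overexpression, and was the only one selected of 18 measured genes on a list of Alk1, Bmp and Id genes. A second identifier with the name id1 overlaps it in the annotation. The stress-induced gene atf3 had 683 and 840 in mutants and 3148 and 2353 in overexpression, 1 selected of 32 measured immediate early and heat shock genes. The 23 transcription factor genes grouped here had log2 fold changes of 1.33 to 3.10 and adjusted p-values of 0.102 to 0.379 (limma). After endothelial rescaling 6 of the 23 stayed selected, nr2f1a, foxf2a, meox2a, pknox2, bnc2 and nr1d2a.

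Peptide hormone signalling was represented by a ligand gene, adma, and a receptor gene of its family, calcrlb. The other copy of this receptor gene, calcrla, had a mean of at least 50 and was not selected. The values of adma (chromosome 7, 66651122 to 66653410), which encodes adrenomedullin, were 42 and 106 in mutants, 41 and 116 in siblings and 337 and 295 in overexpression. The siblings overlapped the mutants, and overexpression was at least 2 times above both, with a log2 fold change from mutants of 2.22 (SE 0.57). The gene lies 40729 bp from lyve1a on the same chromosome. Calcrlb is a receptor of the adrenomedullin and calcitonin gene-related peptide family that is needed in vessels and lymphatics, and its gene had 166 and 335 in mutants, 402 and 548 in siblings and 1171 and 889 in overexpression. The natriuretic peptide receptor gene npr1a, at 160 and 949 in mutants and 2401 and 1898 in overexpression, lay exactly at the threshold with a smallest ratio of 2. The adenosine receptor gene adora2b had 30 and 52 in mutants and 121 and 134 in overexpression. Of adma, calcrlb, npr1a and adora2b, adma alone stayed selected after endothelial rescaling.

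Genes of the Wnt pathway, which patterns brain vessels, were higher in overexpression at 3 feedback or modulator genes and 1 ligand. The values of nkd1, a feedback inhibitor, were 265 and 595 in mutants, 464 and 533 in siblings and 1518 and 1363 in overexpression. The notum1a gene, which encodes an enzyme that inactivates Wnt proteins, had 5 and 20 in mutants, 23 and 64 in siblings and 216 and 81 in overexpression, a log2 fold change of 3.57 (SE 0.79). Overexpression was above every other library in nkd1 and notum1a, but the 2 overexpression libraries of notum1a differed widely. The ligand gene wnt9a had 22 and 49 in mutants and 105 and 98 in overexpression, and amer2 had 70 and 78 in mutants and 235 and 188 in overexpression. These 4 genes were grouped after their values were seen, and after endothelial rescaling notum1a alone stayed selected, while the smallest ratio of amer2 fell to 0.91. With quantile scaling wnt9a was lost. The Wnt effector gene lef1 was not selected, with 179 and 434 in mutants, 319 and 324 in siblings and 1217 and 742 in overexpression.

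Extracellular matrix genes formed a large group, in which 23 genes are described here as chosen after their values were seen. The fibrillin gene fbn1 (chromosome 18, 5503737 to 5528053) had 11 and 66 in mutants, 47 and 73 in siblings and 312 and 273 in overexpression, a log2 fold change of 3.37 (SE 0.72). Emilins, which accompany elastic fibres and lymphatic anchoring filaments, were represented by emilin1b, with 80 and 152 in mutants, 106 and 170 in siblings and 419 and 391 in overexpression, and emilin1a, with 26 and 10 in mutants and 103 and 76 in overexpression. In fbn1 and emilin1b overexpression stood apart from siblings as well as mutants. The lysyl oxidase genes loxl1 and loxl3b, which crosslink elastin and collagen, had 25 and 134 against 490 and 425, and 104 and 298 against 704 and 631, in mutants against overexpression. The basement membrane gene frem1b had 200 and 774 in mutants, 471 and 1010 in siblings and 2726 and 2411 in overexpression. The gelatinase gene mmp2 had 95 and 129 in mutants and 369 and 338 in overexpression and was the 1 selected of 24 measured basement membrane and endothelial matrix genes. The collagen IV gene col4a1, highest of that list, overlapped between groups, with 2659 and 10850 in mutants against 11075 and 8189 in overexpression. Among genes annotated with the term extracellular matrix, 5 of 47 measured genes were selected towards overexpression and none towards mutants. Over all genes 1.85% were selected towards overexpression. Cartilage genes varied between the overexpression libraries, with col9a1b at 41 and 4 in mutants, 88 and 402 in siblings and 133 and 637 in overexpression. The 2 selected genes of a fibroblast and cartilage list of 15 were col9a1b and matn4, and the list summed to 10299 and 13254 in mutants against 12985 and 16681 with overexpression, and the part of such cells was not tested. After endothelial rescaling 5 of the 23 matrix genes stayed selected, fbn1, loxl1, frem1b, ogn and abi3bpb. Most of the others then had smallest ratios of 0.61 to 0.99, so that their groups were no longer apart in this direction. These were emilin1a, frem2b, tgm2b, tgfbi, fmoda, epyc, col16a1, col7a1, col9a1b, col11a1a, matn4, mfap4 and fsta.

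Adhesion and guidance genes were also on this side. Of 25 measured genes annotated with homophilic cell adhesion, 6 (24%, both directions together) were selected, all of them towards overexpression, against 1.85% of all genes in that direction, and 20 had groups apart in that direction, against 25.1% of all genes. The values of pcdh10a, a protocadherin, were 39 and 23 in mutants, 83 and 28 in siblings and 175 and 184 in overexpression, with pcdh10b at 34 and 33 in mutants and 95 and 68 in overexpression. The pcdh18a gene had 70 and 56 in mutants, 214 and 198 in siblings and 269 and 263 in overexpression, a log2 fold change of 2.07 (SE 0.27, adjusted p = 0.0996, limma). It differed from most genes of this side in that the siblings lay near overexpression and the mutants alone were low. The cadherin gene cdh6 had 78 and 177 in mutants, 280 and 502 in siblings and 647 and 605 in overexpression. The clustered protocadherins pcdh1g13 and pcdh1g18 share overlapping annotations, and their values may be split between copies. Among the ephrins, ligands of Eph receptors, efna3b had 33 and 46 in mutants and 138 and 133 in overexpression, and EFNA4 had 24 and 68 in mutants and 234 and 203 in overexpression. The guidance receptor gene robo1 had 156 and 152 in mutants, 147 and 163 in siblings and 362 and 320 in overexpression, and the Eph receptor gene ephb2b had 69 and 42 in mutants and 187 and 174 in overexpression. These last were the 2 selected of 24 measured genes on a list of axon guidance genes in vessels, 8.33% against 1.85% of all genes. On that list 15 genes had groups apart towards overexpression and 1 towards the mutants, against 25.1% and 30.9% of all genes. After endothelial rescaling 2 of the 14 adhesion genes grouped here stayed selected, cdh6 and cldn11a, and 1 of 9 ephrin, semaphorin and robo genes, EFNA4. The smallest ratios of robo1, ephb2b, pcdh10b and pcdh1g13 then fell to between 0.67 and 0.90, so that their groups were no longer apart in this direction, and pcdh10b was among the 2 adhesion genes also lost with quantile scaling.

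The 12 named genes with the largest smallest ratios of this side were mostly genes with very low mutant values. The formin gene fmn1 (chromosome 20, 29533722 to 29566349), an actin nucleator, had 2 and 7 in mutants, 5 and 11 in siblings and 94 and 109 in overexpression, a smallest ratio of 13.4. The myrfl gene was listed at 0 in both mutant libraries, at 2 in both siblings and at 41 and 191 in overexpression, and no fold is given for it. The proteoglycan gene bcan had 6 and 3 in mutants, 5 and 23 in siblings and 138 and 54 in overexpression, and abca4a, a retinoid lipid transporter gene, had 17 and 14 in mutants and 130 and 218 in overexpression. Of the remaining 8, cyp1c2, apoeb and pcdh10a are described elsewhere. The METRNL gene, named after a secreted protein, had 16 and 31 in mutants and 179 and 246 in overexpression. A second formin gene, FMNL1, had 16 and 11 in mutants and 132 and 91 in overexpression, and the polarity gene PARD3B had 22 and 31 against 197 and 159. MFAP4 had 13 and 0 in mutants and 60 and 182 in overexpression, and cmn had 9 and 0 against 40 and 183, so that each was at 0 in 1 mutant library and varied widely in overexpression. In the annotation 5 MFAP4-like genes overlap, so that their values are uncertain between copies. The kinesin family gene kif26aa, which was selected with a ratio of 4.42, had 36 and 174 in mutants, 122 and 279 in siblings and 1104 and 769 in overexpression.

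The apolipoprotein gene apoeb (chromosome 16, 24045712 to 24048429), which encodes a lipid carrier of the yolk and of macrophages, was among the selected genes with the lowest adjusted p. Its values were 117 and 171 in mutants, 126 and 123 in siblings and 842 and 799 in overexpression. The siblings lay inside the mutant range, and overexpression was 5.70 times the mutant mean, with a log2 fold change of 2.53 (SE 0.26, adjusted p = 0.067, limma). It was the 1 selected of 3 measured genes on a list of liver and yolk genes, against 1.85% of all genes. The 20 genes of the list summed to 516 and 586 in mutants, 706 and 819 in siblings and 1664 and 1308 in overexpression. The list's other measured genes, apobb.1 and apoa1b, had 142 and 158, and 49 and 65, in mutants, against 252 and 162, and 130 and 66, in overexpression, and the part of such cells was not tested. The cytochrome P450 genes of the aryl hydrocarbon receptor response differed between replicates of the siblings. For cyp1c2 the values were 31 and 24 in mutants, 275 and 31 in siblings and 440 and 407 in overexpression, and for cyp1a they were 4770 and 11031 in mutants, 10725 and 3386 in siblings and 27510 and 22493 in overexpression. Sibling replicate 1 was thus high in both genes and sibling replicate 2 low.

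Genes of other cell types were on this side too. The keratin genes krt5, krtt1c19e and krt91 of the epidermis had 284 and 89, 171 and 37, and 153 and 58 in mutants, against 814 and 588, 518 and 406, and 411 and 309 in overexpression. Sibling replicate 2, at 85, 57 and 52, was about as low as mutant replicate 2 in all 3 genes. They were the 3 selected of 15 measured epidermis genes, against 1.85% of all genes. The whole list summed to 11409 and 23620 in mutants, 16105 and 19137 in siblings and 36896 and 31368 in overexpression. Most of this came from krt8, at 6596 and 21774 in mutants and 28489 and 21760 in overexpression. The neural genes fabp7a, gng3 and nrxn1a were the 3 selected of 20 measured neural genes, against 1.85% of all genes. For fabp7a the values were 126 and 78 in mutants, 186 and 87 in siblings and 425 and 290 in overexpression. The neural list summed to 4538 and 3870 in mutants, 5587 and 5101 in siblings and 9331 and 7826 in overexpression. Of the measured neural genes 16 of 20 were apart towards overexpression and none towards mutants, against 25.1% of all genes. None of the 7 keratin, neural and glial genes stayed selected after endothelial rescaling, and the part of other cells in these values was not tested. A muscle list had 0 of 26 measured genes selected, with sums of 40960 and 23750 in mutants, 24719 and 63022 in overexpression and 144511 and 89302 in siblings.

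On the side of the mutants the most prominent group was made of blood genes. A list of hemogenic endothelium and blood stem cell genes had 14 measured genes. Of these 5 were selected towards the mutants (35.7%), against 1.64% of all genes, and none towards overexpression. Groups were apart towards the mutants in 11 genes and towards overexpression in 1, against 30.9% and 25.1% of all genes. The list's median log2 fold change was -1.85. The values of gata2b (chromosome 6, 40796479 to 40806264), a zinc finger factor that marks hemogenic endothelium, were 289 and 94 in mutants, 76 and 114 in siblings and 11 and 11 in overexpression. The siblings lay around the lower mutant library, and overexpression was below them all, with a log2 fold change of -3.79 (SE 0.55, adjusted p = 0.102, limma). The repressor gene gfi1aa (chromosome 2, 10983145 to 11002050), which acts in the transition from endothelium to blood, had 266 and 117 in mutants, 60 and 14 in siblings and 11 and 4 in overexpression. In this gene the mutants were above both siblings, and the siblings were above overexpression. The values of myb (chromosome 23, 31888892 to 31903512), a factor of blood stem and progenitor cells, were 3918 and 1362 in mutants, 1836 and 1270 in siblings and 127 and 262 in overexpression, a log2 fold change of -3.65 (SE 0.52). For gfi1b the values were 400 and 81 in mutants, 321 and 165 in siblings and 13 and 23 in overexpression, and for ikzf1, the lymphoid factor Ikaros, 1408 and 283 in mutants, 864 and 579 in siblings and 41 and 140 in overexpression. Both genes had mutant replicates that spread around the siblings. The core-binding factor gene cbfb, not selected, had 2116 and 1323 in mutants and 354 and 673 in overexpression, whereas cd34, which is shared by vessels and blood stem cells, had 2978 and 4723 in mutants and 4797 and 3492 in overexpression.

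**Figure D3:**
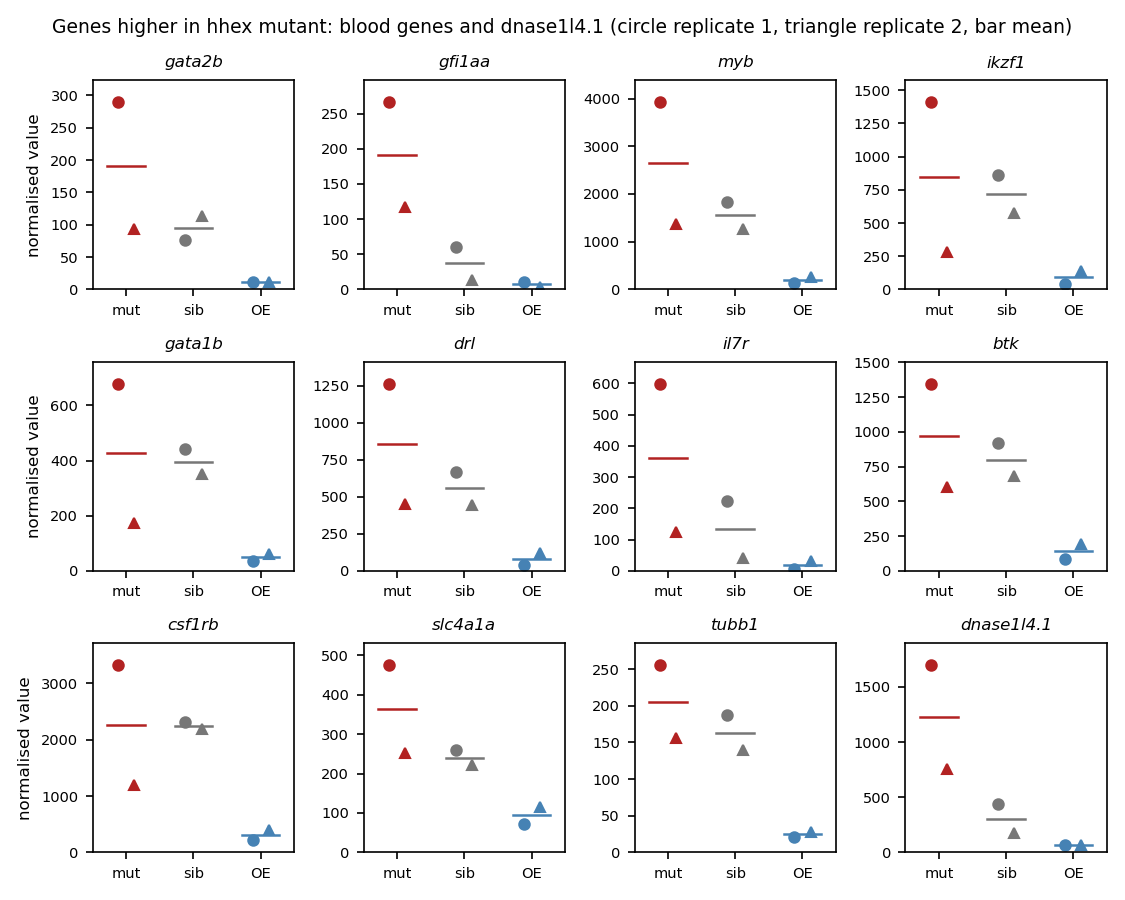
Normalised values of 11 blood genes and dnase1l4.1 selected towards mutants, in mutants (mut), siblings (sib) and overexpression (OE), with circles for replicate 1, triangles for replicate 2 and bars for the mean of the 2 libraries. Mutant replicate 1 is the highest point in all 12 panels, and the overexpression points are the lowest, as for myb at 127 and 262.

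The drl gene cluster on chromosome 5 (60916569 to 60967534), whose zinc finger factors mark the lateral plate mesoderm and early blood, was selected throughout. The values of drl were 1261 and 453 in mutants, 668 and 447 in siblings and 40 and 119 in overexpression, and those of drll.3 were 314 and 227 in mutants, 151 and 102 in siblings and 19 and 42 in overexpression. For drll.1 they were 1594 and 636 in mutants and 61 and 160 in overexpression, and for drll.2 1669 and 657 in mutants and 81 and 140 in overexpression. All 4 genes had overexpression below both siblings by at least 2 times, and because drll.2 overlaps drll.1 and drl in the annotation their values are not independent. The zinc finger gene blf on chromosome 22 had 6095 and 2117 in mutants, 2883 and 2059 in siblings and 169 and 516 in overexpression. The erythroid factor genes gata1a and gata1b had 115 and 66, and 678 and 175, in mutants, against 8 and 26, and 36 and 63, in overexpression. The myeloid factor gene cebpa had 556 and 443 in mutants, 301 and 290 in siblings and 40 and 164 in overexpression, and bcl11ba, whose mammalian counterpart is a T cell factor, had 2966 and 498 in mutants, 454 and 285 in siblings and 140 and 134 in overexpression. Of these 16 transcription factor genes 14 had overexpression at least 2 times below both siblings, against 136 of all 194 genes higher in mutants. At the same total or with quantile scaling 15 of the 16 stayed selected, ikzf1 being lost under both.

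Leukocyte signalling genes followed the same order. The kinase genes btk and jak3 of lymphoid signalling had 1345 and 602, and 356 and 208, in mutants, 920 and 682, and 293 and 219, in siblings and 88 and 194, and 32 and 94, in overexpression. The adaptor gene skap1 had 202 and 112 in mutants, 124 and 117 in siblings and 14 and 21 in overexpression, and tespa1, of T cell receptor signalling, had 420 and 117 in mutants, 237 and 149 in siblings and 15 and 25 in overexpression. In all 4 genes both siblings lay within the mutant range, and overexpression was at least 2 times below. The receptor genes il7r and il6r had 598 and 124, and 2339 and 1298, in mutants, against 7 and 32, and 186 and 406, in overexpression. Macrophage colony-stimulating factor signals through receptors that include the product of csf1rb, whose gene had 3315 and 1199 in mutants, 2312 and 2187 in siblings and 228 and 403 in overexpression. The genes wasa and wasb, homologs of the Wiskott-Aldrich protein of blood cells, had 635 and 262, and 432 and 338, in mutants, against 83 and 91, and 51 and 110, in overexpression. Among 25 leukocyte signalling genes grouped after their values were seen, 20 had overexpression at least 2 times below both siblings. Among all 194 genes higher in mutants, 136 met that ratio, so it was not particular to this group. The log2 fold changes of the 25 genes were between -1.24 for lyn and -4.07 for il7r. At the same total 20 of the 25 stayed selected, with themis, sla2, lyn, unc13d and tagapb lost.

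Differentiated blood lineages were represented less evenly. Of 15 measured erythroid genes 4 were selected towards the mutants, against 1.64% of all genes. They were gata1a, the transferrin receptor gene tfr1a, the anion exchanger gene slc4a1a and the membrane skeleton gene epb41b. Of the 15 genes 13 had groups apart towards the mutants and none towards overexpression, against 30.9% and 25.1% of all genes. The values of slc4a1a were 474 and 252 in mutants, 259 and 221 in siblings and 73 and 116 in overexpression. Those of tfr1a were 202 and 128 in mutants and 40 and 32 in overexpression, and those of epb41b were 517 and 282 in mutants and 138 and 71 in overexpression. The erythropoietin receptor gene epor, which was not on the list, had 484 and 140 in mutants, 272 and 173 in siblings and 39 and 66 in overexpression. Overexpression was below every other library in these genes, but at the same total epb41b and epor were no longer selected. The globin genes of the same list were not selected. For hbbe1.1 the groups overlapped, at 2360 and 2028 in mutants, 2713 and 1550 in siblings and 2091 and 1586 in overexpression. For hbae1.2 they were apart, at 1267 and 1185 in mutants and 813 and 579 in overexpression. The list as a whole summed to 12492 and 9817 in mutants, 12356 and 7560 in siblings and 7720 and 6021 in overexpression. Among 5 measured thrombocyte genes gp1bb was selected, with 141 and 42 in mutants and 8 and 13 in overexpression, though not at the same total, and the platelet tubulin gene tubb1 had 255 and 156 in mutants, 188 and 139 in siblings and 21 and 28 in overexpression. On the myeloid list of 21 measured genes, cebpa was selected towards mutants and mfap4 towards overexpression, mfap4 being 1 of the overlapping copies above. Of the 21 genes 9 were apart towards the mutants and 1 towards overexpression, and the median log2 fold change was -1.67. The lysozyme gene lyz had 2437 and 5421 in mutants, 1496 and 1951 in siblings and 41 and 2948 in overexpression, and the myeloid sum was 22362 and 24510 in mutants, 17035 and 17553 in siblings and 4390 and 18282 in overexpression. Overexpression replicate 1 was thus the low library for mature myeloid genes, while for the hemogenic list the sums were 9764 and 9129 in overexpression, 17370 and 13672 in mutants and 13220 and 12550 in siblings. Whether the tdTomato gate left out blood cells that carry EGFP cannot be told apart from an effect of hhex on them.

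Receptors on the mutant side included cxcr4b, a chemokine receptor also counted among tip cell genes, with 639 and 459 in mutants, 623 and 384 in siblings and 176 and 155 in overexpression. The lipid receptor genes s1pr5b and ptger4b had 282 and 129, and 310 and 119, in mutants, against 13 and 29, and 8 and 27, in overexpression. Their siblings, at 186 and 165 and at 202 and 170, lay inside the mutant range. Of 12 measured tip cell genes cxcr4b was selected towards the mutants and pfkfb3, a regulator of glycolysis, towards overexpression, the latter with 164 and 192 in mutants, 380 and 262 in siblings and 628 and 404 in overexpression. Over all genes 1.64% were selected towards the mutants and 1.85% towards overexpression. The tip cell ligand gene apln was not selected, with 704 and 2481 in mutants and 433 and 504 in overexpression.

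A smaller group separated the mutants from both other groups. The values of notch2 (chromosome 8, 19516900 to 19587707), a Notch receptor, were 1705 and 1921 in mutants, 749 and 699 in siblings and 459 and 523 in overexpression. The 3 groups did not overlap, and both siblings lay nearer to overexpression than to the mutants, with a log2 fold change from mutants to overexpression of -1.88 (SE 0.21, adjusted p = 0.067, limma) and from siblings to mutants of 1.32 (SE 0.21). Of 22 measured arterial and Notch genes it was the only one selected, and notch1b, the most abundant of the rest, had 9489 and 14244 in mutants and 9764 and 9151 in overexpression. The phosphatase gene ptpn13 (chromosome 21, 9294531 to 9469539) had 582 and 634 in mutants, 169 and 173 in siblings and 152 and 152 in overexpression, with an adjusted p of 0.067 (limma). The endocytic receptor genes lrp1aa, lrp1ab and sorl1 were the 3 selected of 16 measured genes on a list of lipoprotein receptors and lipid handling. Over all genes 1.64% were selected towards the mutants. For lrp1aa the values were 730 and 1528 in mutants, 307 and 262 in siblings and 208 and 320 in overexpression, for lrp1ab 1096 and 2050 in mutants, 482 and 554 in siblings and 402 and 474 in overexpression, and for sorl1 483 and 420 in mutants, 162 and 192 in siblings and 113 and 176 in overexpression. The bicarbonate transporter gene slc4a4b had 453 and 443 in mutants, 213 and 156 in siblings and 171 and 152 in overexpression. In notch2, ptpn13, lrp1aa, sorl1 and slc4a4b the mutants were at least 2 times above both siblings, and lrp1ab missed that ratio narrowly. Mutant replicate 2, the library with the higher endothelial sum, was the higher of the pair in notch2, lrp1aa, lrp1ab and ptpn13.

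**Figure D4:**
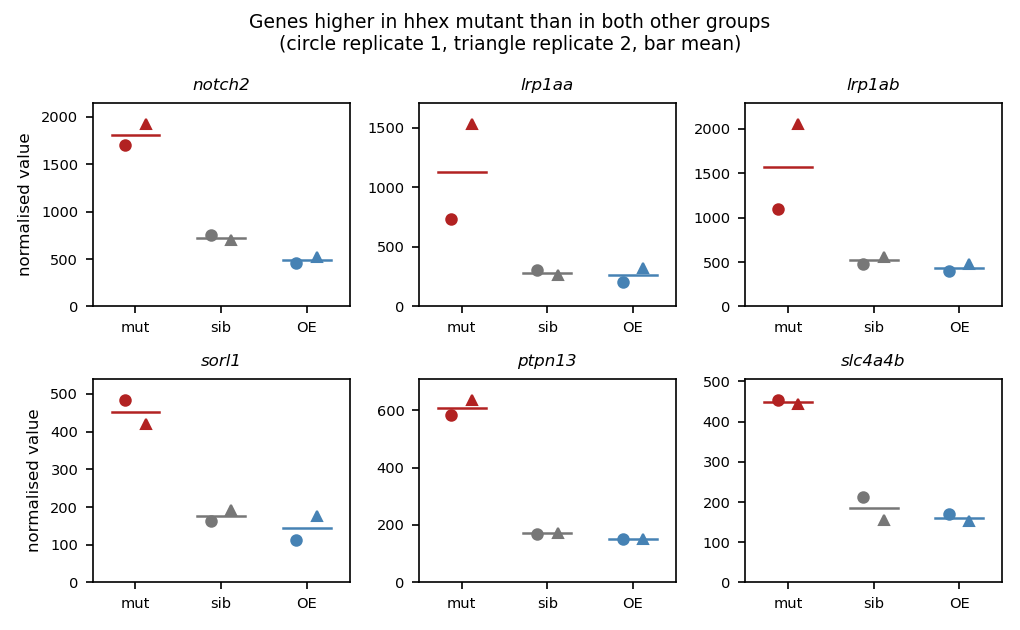
Normalised values of notch2, lrp1aa, lrp1ab, sorl1, ptpn13 and slc4a4b in mutants (mut), siblings (sib) and overexpression (OE), with circles for replicate 1, triangles for replicate 2 and bars for the mean of the 2 libraries. Both mutant points lie above all 4 others in each panel, as for notch2 at 1705 and 1921 against 459 to 749.

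Growth genes were lower in overexpression by smaller ratios. The pyrimidine synthesis gene cad had 4682 and 3122 in mutants, 3982 and 3832 in siblings and 1112 and 1338 in overexpression, and the ribosome biogenesis gene pdcd11 had 2040 and 1518 in mutants, 1845 and 1685 in siblings and 716 and 735 in overexpression. Siblings and mutants overlapped, and overexpression was below both. The RNA polymerase I and III subunit gene polr1c had 186 and 197 in mutants and 77 and 73 in overexpression. Of 129 measured genes annotated with ribosome biogenesis 117 had groups apart towards the mutants and 1 towards overexpression, against 30.9% and 25.1% of all genes, with a median log2 fold change of -0.78, but none met the rule's ratio. That term was chosen after the values were seen. Of 15 growth genes grouped here 8 stayed selected at the same total and 12 with quantile scaling, cad and polr1c among both and pdcd11 among neither. On a list of 32 measured cell cycle genes none was selected. Of these 20 were apart towards the mutants and 1 towards overexpression, against 30.9% and 25.1% of all genes. The DNA methyltransferase gene dnmt3ba had 3785 and 2347 in mutants, 2829 and 2445 in siblings and 996 and 1025 in overexpression, and hdac7b, a histone deacetylase gene, had 141 and 76 in mutants and 3 and 16 in overexpression.

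The remaining genes with the largest smallest ratios of this side were dnase1l4.1 and cpm. The values of dnase1l4.1 (chromosome 22, 5637518 to 5652648), a nuclease gene that overlaps tma7, were 1695 and 753 in mutants, 436 and 173 in siblings and 66 and 70 in overexpression, and the 3 groups followed each other without overlap. The carboxypeptidase gene cpm had 1002 and 612 in mutants, 532 and 414 in siblings and 120 and 135 in overexpression, with a log2 fold change of -2.61 (SE 0.29, adjusted p = 0.067, limma).

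**Figure D5:**
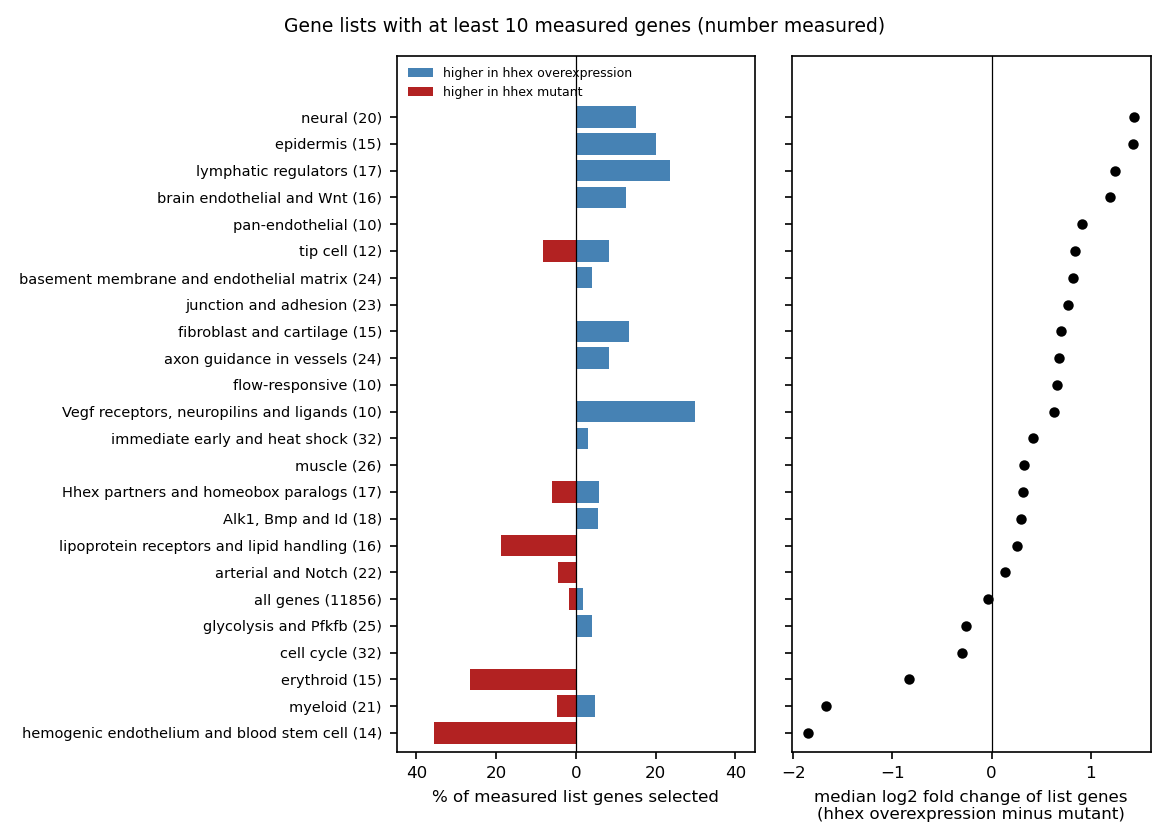
Left, the share of measured genes of each list with at least 10 measured genes (number in parentheses) that were selected towards overexpression (blue) or mutants (red), in percent. Right, the median log2 fold change of the same genes, overexpression minus mutant; blood lists lie lowest, at -1.85 for hemogenic genes, and neural and epidermis lists highest.

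Of the lists not yet named, none of 10 measured flow-responsive genes and none of 23 junction and adhesion genes was selected. Over all genes 1.85% were selected towards overexpression and 1.64% towards the mutants. The pericyte gene rgs5b was selected towards overexpression among 6 measured mural genes, with 111 and 112 in mutants, 242 and 458 in siblings and 736 and 432 in overexpression. Of the 6 genes 1 was apart towards overexpression and 2 towards the mutants, against 25.1% and 30.9% of all genes. The list had a median log2 fold change of -0.24. It summed to 7319 and 4559 in mutants against 3454 and 3655 in overexpression, with myh11a at 5495 and 2223 against 1086 and 1641. The transcription factor gene tfec was selected in the same direction among 8 neural crest and pharyngeal arch genes, with 5 and 30 in mutants and 106 and 126 in overexpression. On the list of 25 measured glycolysis genes pfkfb3 was the one selected. Of these genes 11 were apart towards the mutants and 4 towards overexpression, against 30.9% and 25.1% of all genes. The list's median log2 fold change was -0.26. On a list of 17 measured Hhex partners and homeobox paralogs meox2a was selected towards overexpression and gata1a towards the mutants.

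The order of the replicates differed between both sides. In 147 of the 219 genes higher in overexpression mutant replicate 1 was below replicate 2, and in 179 of the 194 genes higher in mutants it was above replicate 2. Sibling replicate 1 stood to sibling replicate 2 in the same way, below it in 144 of the 219 and above it in 156 of the 194. The order over all measured genes was not counted, so that these numbers have no background beside them. Without mutant replicate 1 the rule selected 502 genes towards overexpression and 289 towards mutants, and without replicate 2 it selected 1629 and 852.

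Some selected genes were duplicates or neighbours of each other. In 118 pairs of names ending in a and b at least 1 gene was selected. Both were selected in 9, in each case in the same direction, namely emilin1, foxf2, gata1, irx3, lrp1a, lyve1, nrp2, pcdh10 and was. The pairs were matched by name only and include different genes, such as cebpa with cebpb and chka with chkb. In 63 of the 118 pairs the other copy had a mean of at least 50. There were 21 selected genes within 50 kb of the next selected gene, of which 19 had the same direction as that neighbour. Some of these neighbours overlap in the annotation, such as MFAP4 with mfap4 and drll.2 with drll.1, and can share reads. The share of such pairs and neighbours over all measured genes was not counted, so that these numbers have no background beside them. On chromosome 12, which holds hhex, 16 of 386 measured genes were selected (4.15%, against 3.48% over all chromosomes). Of the 413 genes 64 have a clone name only, 5 have a library of the lower group at 0, and 2 identifiers named si:dkeyp-13d11.1 hold the same values in all 6 libraries and may be 1 gene counted under both. Altogether 114 of the 413 genes overlap another annotated gene, 81 of them on the opposite strand, and the strand setting of the counting is not given in the sources used here.

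The threshold itself cut through a continuous range. Just inside it towards overexpression, at a smallest ratio of 2, were genes such as npr1a, dctd, wnt9a and pcdh10b. Just outside it were raraa and pxdc1b, both at 1.99. Towards the mutants cables2b and si:ch73-335l21.1 lay just inside at 2, and sema4ab and si:dkey-185m8.2 just outside at 1.99.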

How the data were processed

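RNA of sorted endothelial cells (6 libraries, SMARTer Stranded Total RNA-Seq Pico kit) was sequenced by the authors, trimmed with Reaper, aligned to GRCz10 with STAR 2.4.0a, counted with featureCounts 1.4.5-p1 and normalised with DESeq2 1.62. Each deposited value is a signal, namely reads divided by a size factor and rounded to whole numbers by the authors, so that no count model was used. Symbols came from the table and a gene name table (26237 identifiers matched), and 17 selected genes were renamed. Raw depth per library was not used here.

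The rule used the 4 columns of overexpression and mutants as deposited. log2(value + 1) was fitted with limma 3.58.1 (R 4.3.3) over all 3 groups, with mean trend and robust estimation, for 20900 genes with a mean of at least 5, and p-values were adjusted by Benjamini-Hochberg. The rule and the fit were tested on simulated data.

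Members and gene lists were chosen with earlier results of these data known. Named are, per direction, the 12 genes with a symbol and the largest smallest ratio, the selected genes of the lists, hhex and the genes at the threshold, and for lists up to 3 others by mean value. Other genes, role groups and annotation terms were chosen after the values were seen. Alternatives were other filters, pseudocounts, scalings, weights, replicate blocks and leaving out each library.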

Additional observations from a re-analysis of the deposited data

How the results depend on the processing

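In the limma fit 0 genes passed an adjusted p of 0.05. The count stayed at 0 with quantile scaling, with rescaling to the same total, with the 4 libraries alone, with a pseudocount of 0.1 or 5, with a minimum mean of 50, and with voom on the deposited values, an alternative chosen after seeing the data. It was 10 (2 higher, 8 lower) with no filter, 7 with library weights, 96 (1 higher, 95 lower, with the median of all genes at -0.875) after rescaling to the pan-endothelial list, and 13 at an adjusted p of 0.1. Leaving out 1 library gave 0 to 2512 genes, 115 without mutant replicate 1, 2512 without mutant replicate 2, 0 without overexpression replicate 1 and 6 without overexpression replicate 2, where the lone library is assumed to vary like the other groups. Same-numbered libraries deviated together with a correlation of -0.197 between overexpression and mutants, -0.108 between overexpression and siblings and 0.486 between mutants and siblings, so the numbers were not taken to pair the groups. With a replicate block the count was 0 (124 under 0.1), and with the crossed pairing, chosen after seeing the data, 1213. The cause of these changes was not tested.

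Of the 219 genes higher in overexpression and the 194 higher in mutants, the rule gave 391 and 315 with a mean of at least 20, 123 and 129 with a mean of at least 100, 672 and 651 with a ratio of at least 1.5, 56 and 61 with a ratio of at least 3, 217 and 193 with quantile scaling, 44 and 410 after rescaling to the pan-endothelial list, and 290 and 137 at the same total. Leaving out each library gave 352 to 1629 and 288 to 852 genes, where fewer libraries make the ratio easier to reach. Alternatives were run for the log2 fold changes of 200 of the selected genes and of hhex, and not for named genes outside the rule. The 200 kept their direction, and hhex did not. Its log2 fold change of -0.0027 was 0.11 at the same total and -0.91 after rescaling to the pan-endothelial list. It was -0.46 without mutant replicate 1, 0.46 without mutant replicate 2 and 0.14 without overexpression replicate 1. The deposited values do not give the raw depth, which limits what can be said of genes with low values.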
